A study of Mus musculus with 6 samples.

Results

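The genes described are 9 members of the PIWI-interacting RNA (piRNA) pathway, Piwil2, Mael, Gtsf1, Asz1, Tdrd1, Tdrd9, Tdrkh, Pld6 and Mov10l1, chosen by their symbols among the 47205 genes of an expression table from mouse ovaries. Each symbol matched 1 row. RNA sequencing was done on whole ovaries at 9 days post partum (dpp), in 3 libraries from wild-type mice (WT) and 3 from mice with a granulosa cell knockout of Srsf1, labelled SRSF1 cKO. Granulosa cells are the somatic cells that surround each oocyte, and Srsf1 encodes a splicing factor of the serine/arginine-rich family. The sources used here do not name the Cre driver, the strain or the number of animals behind each library, so p-values measure only the spread between these libraries, which may be technical.

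PIWI proteins are Argonaute-like proteins that bind small RNAs called piRNAs and silence transposons in germ cells. Long precursors are handed by the helicase MOV10L1 to the outer surface of mitochondria, where PLD6 cuts them and TDRKH holds them for trimming, while proteins with Tudor domains such as TDRD1 bind methylated arginines of PIWI proteins in cytoplasmic granules between mitochondria (nuage). In mice the pathway is needed for sperm formation, whereas females that lack its genes are generally fertile and mouse oocytes also carry small interfering RNAs made by DICER1.

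The 6 libraries held 16840923 to 18721895 reads, recovered from the deposited values, which are FPKM (fragments per kilobase of transcript and per unit of library size). The targeted gene, Srsf1, averaged 45.3 ± 4.96 FPKM over the WT libraries and 22.9 ± 3.52 over the cKO libraries (SD, n = 3 each), and the groups did not overlap (limma adjusted p = 0.32). The exact two-sided permutation test gave p = 0.1, the smallest that 3 libraries against 3 allow. As to the ovary label, the zona pellucida gene Zp3 stood at 561 to 697 FPKM and Amh, a granulosa cell product, at 103 to 220. Of 11 genes listed as testis germ and Sertoli cell markers, Dmrt1, a gene of testis differentiation, had at most 2 recovered reads per library. In the same list 4 averaged 1 FPKM or more, among them Dhh at 5.12 to 8.24 and Gfra1 at 1.93 to 4.34. The others were Sox9 at 1.41 to 3.06 and Gata1 at 0.633 to 1.72. Which cells of the ovary these 4 came from was not tested. Libraries of both groups differed from others of their group in their length profile. Among genes of 5000 bases or more, the median difference of cKO replicate 2 from the other cKO libraries was -0.13 on the log2(FPKM + 1) scale, and among genes under 1500 bases it was 0.18. For cKO replicate 3 these medians were 0.11 and -0.13, the opposite way. For WT replicate 2, against the other WT libraries, they were 0.0875 and -0.19. Each member's difference is therefore also given without cKO replicate 2 or 3 where leaving one out turned it or moved it by over 1.5 times. For some members it is given without a WT library too.

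None of the 9 members passed the test between cKO and WT, in a fit over the 14714 genes whose mean reached 1 FPKM (limma, smallest adjusted p among members 0.76). All 9 passed that filter. At an adjusted p below 0.05 the same fit called 1 gene higher in cKO, 0.00680% of those tested, and 2 lower, 0.0136%. By limma-voom, run on recovered reads, 0 genes were called, with 6.16% at an unadjusted p below 0.05. Fitted differences of the members ran from -0.50 to 0.25 on the log2(FPKM + 1) scale, with 6 members above 0 and 3 below. Their median was 0.13, beside -0.000143 over all genes tested. Neither the median nor the split held without single libraries: without cKO replicate 2 the median was 0.30 with 8 members above 0 and 1 below, and without cKO replicate 3 it was -0.06 with 4 above and 5 below. The median was 0.05 without WT replicate 2, with 8 above 0 and 1 below, and 0.05 without WT replicate 3, with 5 above and 4 below. At an unadjusted limma p below 0.05 stood 1 member, Tdrd9, where 6.34% of all genes did.

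**Figure D1:**
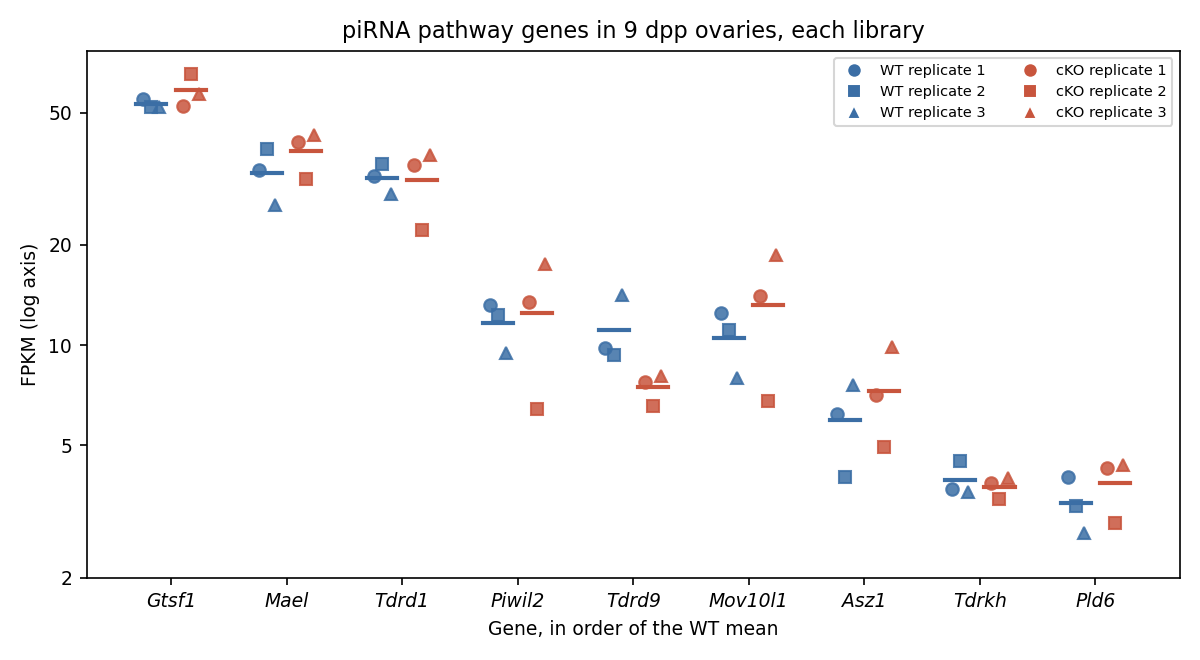
FPKM of each member (log axis) in each of the 6 libraries, with blue for WT, red for cKO, a marker shape for each replicate number and a bar at the group mean. Gtsf1 is highest at 52.0 to 65.4 FPKM, Tdrd9 alone has every cKO library below every WT library, and the red squares of cKO replicate 2 are the lowest cKO points in 8 of 9 genes.

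Levels in WT spanned from Gtsf1 at 53 ± 1.65 FPKM to Pld6 at 3.35 ± 0.651 (SD, n = 3). In that order came Gtsf1, then Mael at 33 ± 6.22 and Tdrd1 at 31.9 ± 3.35, then Piwil2 at 11.7 ± 1.94, Tdrd9 at 11.1 ± 2.67 and Mov10l1 at 10.5 ± 2.3, and then Asz1 at 5.94 ± 1.8, Tdrkh at 3.93 ± 0.477 and Pld6. The WT values of adjacent genes overlapped within each of these groups and did not overlap between Gtsf1 and Mael, between Tdrd1 and Piwil2, or between Mov10l1 and Asz1. Gtsf1 exceeded 92.6% of the protein-coding genes tested and Pld6 exceeded 19%. The values rested on 99 to 3914 recovered reads per gene and library, with the fewest for Pld6 and the most for Tdrd1.

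Piwil2 encodes MILI, the PIWI protein that binds piRNAs and cuts their targets (chromosome 14, 70609926 to 70674338, minus strand; positions are those of the deposited table, on GRCm39). It stood at 13.2, 12.3 and 9.48 FPKM in WT replicates 1, 2 and 3 and at 13.5, 6.43 and 17.6 in cKO replicates 1, 2 and 3. The cKO libraries thus held both the lowest and the highest value of the 6, and the WT values lay between them. The difference between groups was 0.00487 on the log2(FPKM + 1) scale (SE 0.324, interval of 95% from -0.76 to 0.77, limma adjusted p = 0.998). Without cKO replicate 2 it was 0.39 (limma adjusted p = 0.726), with the remaining cKO libraries above all WT libraries, and without cKO replicate 3 it was -0.28 (limma adjusted p = 0.781). It was -0.13 without WT replicate 3.

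Mov10l1 encodes the RNA helicase that binds piRNA precursors (chromosome 15, 88867094 to 88939355, plus strand). Its FPKM was 12.5, 11.1 and 7.97 in WT replicates 1, 2 and 3 and 14.1, 6.81 and 18.6 in cKO replicates 1, 2 and 3. As for Piwil2, cKO replicate 2 was lowest and cKO replicate 3 highest of all libraries, 2.74-fold apart. The group difference was 0.22 (SE 0.336, interval from -0.57 to 1.02, limma adjusted p = 0.906). It was 0.60 without cKO replicate 2 (limma adjusted p = 0.618) and -0.06 without cKO replicate 3 (limma adjusted p = 0.958). Without WT replicate 3 it was 0.05.

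Tdrd1, whose protein is a Tudor-domain scaffold of nuage (chromosome 19, 56814603 to 56858444, plus strand), stood at 32.2, 35 and 28.4 FPKM in WT replicates 1, 2 and 3 and at 34.8, 22.2 and 37.2 in cKO replicates 1, 2 and 3. It had the same extremes as Piwil2 and Mov10l1. The order with cKO replicate 2 lowest and cKO replicate 3 highest of all 6 libraries was held by these 3 of 9 members and by 7.71% of all genes tested. The difference of Tdrd1 was -0.05 (SE 0.196, interval from -0.51 to 0.41, limma adjusted p = 0.97) and turned to 0.17 without cKO replicate 2, while it was -0.18 without cKO replicate 3. It also turned, to 0.02, without WT replicate 2.

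Tdrd9, which encodes a helicase with a Tudor domain that works with a PIWI protein in transposon silencing (chromosome 12, 111937922 to 112035288, plus strand), was the 1 member of 9 whose groups did not overlap. It stood at 9.8, 9.37 and 14.2 FPKM in WT replicates 1, 2 and 3, and at 7.75, 6.55 and 8.1 in cKO replicates 1, 2 and 3. All cKO libraries were below all WT libraries, a pattern with cKO lower shown by 5.89% of all genes tested. The group means were 11.1 ± 2.67 and 7.47 ± 0.816 FPKM (SD, n = 3 each). The difference was -0.50 on the log2(FPKM + 1) scale (SE 0.166, interval from -0.89 to -0.11, unadjusted p = 0.0196, adjusted p = 0.76, limma), and the exact two-sided permutation p was 0.1. WT replicate 3 set much of its size, since the difference was -0.33 without that library (limma adjusted p = 0.804). The unadjusted limma p of Tdrd9 was 0.0406 without WT replicate 3 and 0.0575 without cKO replicate 2.

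No member had every cKO library above every WT library, where 6.37% of all genes tested did. Without cKO replicate 2 this count went from 0 to 4 members (Piwil2, Mov10l1, Mael and Pld6), beside 12.0% of all genes, and none of the 4 passed the test (limma, smallest adjusted p = 0.618).

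Mael encodes a nuage protein with a high mobility group box that acts in transposon silencing (chromosome 1, 166028954 to 166066313, minus strand). It stood at 33.7, 38.8 and 26.4 FPKM in WT replicates 1, 2 and 3 and at 40.8, 31.6 and 42.9 in cKO replicates 1, 2 and 3. The groups overlapped through cKO replicate 2 alone, and the difference was 0.22 (SE 0.171, interval from -0.19 to 0.63, limma adjusted p = 0.844), 0.35 without cKO replicate 2, 0.14 without cKO replicate 3 and 0.07 without WT replicate 3. Gtsf1, which encodes a small zinc finger protein that assists PIWI proteins (chromosome 15, 103310885 to 103338872, minus strand), stood at 54.9, 52 and 52.1 FPKM in WT replicates 1, 2 and 3 and at 52.5, 65.4 and 56.9 in cKO replicates 1, 2 and 3. It was the only member with its highest value in cKO replicate 2, and the difference between groups was 0.13 (SE 0.102, interval from -0.11 to 0.37, limma adjusted p = 0.844), or 0.0435 without cKO replicate 2.

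The members whose proteins sit on the mitochondrial surface had the lowest WT means of the 9. In cKO replicate 3, Asz1 at 9.84 FPKM exceeded Tdrd9 at 8.1. Asz1, an ankyrin repeat protein that anchors nuage to mitochondria (chromosome 6, 18050963 to 18109060, minus strand), stood at 6.21, 4.02 and 7.59 FPKM in WT replicates 1, 2 and 3 and at 7.08, 4.95 and 9.84 in cKO replicates 1, 2 and 3. Its groups overlapped over most of their range, with a difference of 0.25 (SE 0.269, interval from -0.39 to 0.88, limma adjusted p = 0.873), 0.47 without cKO replicate 2 and 0.0332 without cKO replicate 3. The difference was 0.0319 without WT replicate 2. Tdrkh, the scaffold for trimming of piRNA 3′ ends (chromosome 3, 94320551 to 94342161, plus strand), varied little, at 3.7, 4.48 and 3.62 FPKM in WT replicates 1, 2 and 3 and 3.85, 3.44 and 3.99 in cKO replicates 1, 2 and 3. Pld6, the nuclease that cuts piRNA precursors (chromosome 11, 59674719 to 59678483, minus strand), stood at 4.03, 3.29 and 2.74 FPKM in WT replicates 1, 2 and 3 and at 4.27, 2.92 and 4.37 in cKO replicates 1, 2 and 3. Both had differences within the spread of the libraries, -0.05 for Tdrkh (SE 0.118, interval from -0.33 to 0.23, limma adjusted p = 0.942) and 0.15 for Pld6 (SE 0.174, interval from -0.26 to 0.57, limma adjusted p = 0.879). Without cKO replicate 2 these were 0.00125 and 0.30, and without cKO replicate 3 they were -0.0839 and 0.0736. The difference of Tdrkh turned to 0.0298 without WT replicate 2, and that of Pld6 was 0.049 without WT replicate 3.

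Of the 9 members, 4 ranged more than 2-fold over the 6 libraries (Piwil2, Mov10l1, Tdrd9 and Asz1), as did 19.1% of all genes tested. In 8 of 9 members cKO replicate 2 was the lowest cKO library, against 40.4% of all genes tested, and in 8 of 9 cKO replicate 3 was the highest, against 34.5%. The FPKM ratio of cKO replicate 2 to the mean of cKO replicates 1 and 3 was 0.414 for Piwil2 and 0.417 for Mov10l1, whose gene lengths in the table are 6419 and 4155 bases, and 1.2 for Gtsf1, the shortest member at 1029 bases. It did not follow length throughout, with 0.876 for Tdrkh at 6357 bases and 0.585 for Asz1 at 1860 bases. The part of the length profiles of these libraries in the ratios was not tested.

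**Figure D2:**
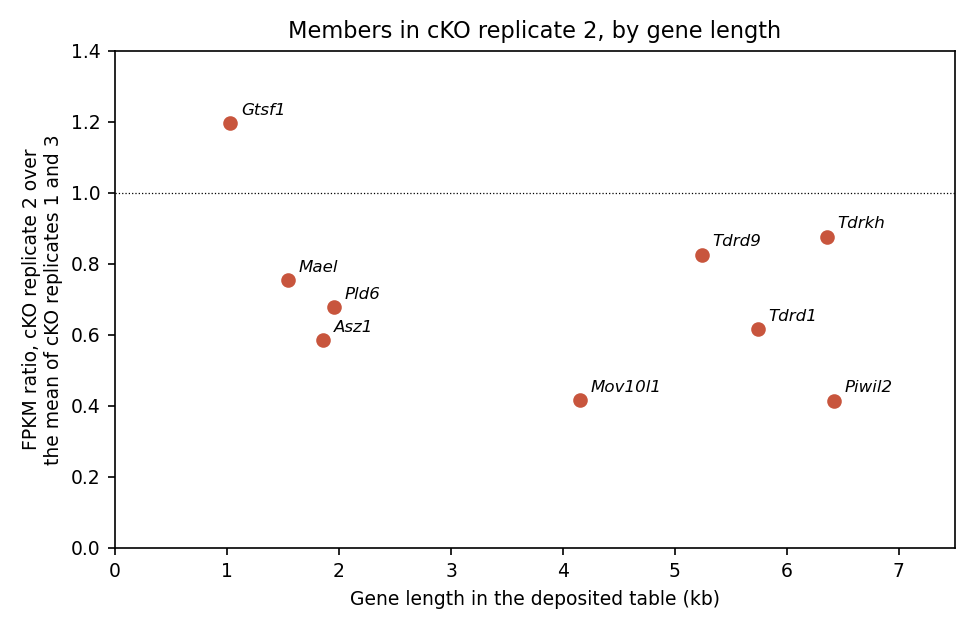
FPKM ratio of cKO replicate 2 to the mean of cKO replicates 1 and 3 for each member, against gene length in kilobases, with a dotted line at a ratio of 1. Gtsf1 alone lies above 1, Piwil2 and Mov10l1 lie lowest at 0.414 and 0.417, and Tdrkh lies at 0.876 although it is almost as long as Piwil2.

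Genes that overlap the span of a member in the table were silent or nearly so. Of the 6 found, Oaz3, on the strand opposite Tdrkh, averaged 0.195 FPKM over the WT libraries, and the 5 others, within Piwil2, Mov10l1 and Tdrd9, were listed at 0 in WT.

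The sequence around CACGTG is shown for the members because this E-box, a 6-base palindrome bound by basic helix-loop-helix proteins, was found upstream of 5 of the 8 members with a RefSeq promoter (build GRCm38.p6, not the build of the expression table). The search covered the 250 bases before each annotated start and was chosen after the sequences were seen. Both strands are read at once because the motif is its own reverse complement. Piwil2 has no entry in the promoter table. Capitals mark the motif, and each line runs 5′ to 3′ on the strand of the gene:
Mael: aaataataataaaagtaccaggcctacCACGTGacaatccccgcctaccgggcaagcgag
Pld6: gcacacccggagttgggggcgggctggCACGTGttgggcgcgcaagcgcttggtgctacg
Tdrd9 (distal): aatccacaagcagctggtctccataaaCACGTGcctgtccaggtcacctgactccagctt
Tdrd9 (proximal): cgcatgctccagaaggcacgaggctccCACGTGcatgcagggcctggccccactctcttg
Mov10l1: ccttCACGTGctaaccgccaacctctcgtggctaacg
Tdrd1: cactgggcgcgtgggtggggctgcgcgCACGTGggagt

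These windows lie at chr1:166238935-166238994 (Mael, minus strand), chr11:59787658-59787717 (Pld6, minus strand), chr12:111971367-111971426 and chr12:111971437-111971496 (Tdrd9, plus strand), chr15:88982744-88982780 (Mov10l1, plus strand) and chr19:56826171-56826208 (Tdrd1, plus strand). The first base of the motif lies 223 bases before the start of Mael, 33 before that of Pld6, 165 and 95 before that of Tdrd9, 246 before that of Mov10l1 and 11 before the nearest start of Tdrd1. Against WT the 5 genes differed: Tdrd9 was below WT in every cKO library, while Mov10l1, Mael, Tdrd1 and Pld6 peaked in cKO replicate 3. That library was the highest of all 6 for 6 of 9 members and 17.3% of all genes tested. Within the cKO group all 5 were lowest in replicate 2 and highest in replicate 3. Each rank was held by 8 of 9 members, and by 40.4% and 34.5% of all genes tested. Over genes in the promoter table, 6.86% of all and 9.84% of those tested for expression held the motif in a window of the same length, as did 5 of 18 other piRNA pathway genes and 2 of 16 oocyte marker genes. Median GC content was 58.4% in the windows of the members and 59.6% in those of the genes tested. AACNG, the core bound by MYB proteins and searched on both strands, was found in 6 of 8 members and in 75.2% of the genes tested. The letters of these motifs do not allow them to overlap.

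The other genes of the pathway, taken from a list of 27, gave 25 rows in the table and 18 genes above the filter, of which 0 were called higher and 0 lower. Their median difference was -0.04, with 7 above 0 and 11 below. The remaining PIWI genes were far lower than Piwil2. Piwil1 stood at 0.422 to 1.11 FPKM, on 29 to 81 recovered reads. Piwil4 stood at 0.232, 0.157 and 0.139 FPKM in WT replicates 1, 2 and 3 and at 0.513, 0.341 and 0.404 in cKO replicates 1, 2 and 3, so that its groups did not overlap, on 9 to 34 reads (limma without a filter, unadjusted p = 0.00858, adjusted p = 0.845). In that fit 5.13% of the 32693 genes stood at an unadjusted limma p below 0.05. The share of them whose groups did not overlap was not computed. Tdrd6, Spocd1, Gtsf2, Gtsf1l and Btbd18 also lay below the filter.

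Henmt1, the enzyme that methylates piRNA 3′ ends, had the smallest p of the 18 and averaged 3.08 ± 0.744 FPKM over the WT and 2.05 ± 0.208 over the cKO libraries (difference -0.41, SE 0.168, limma adjusted p = 0.773). Its direction and size were near those of Tdrd9. Ddx4, the germ cell helicase of nuage, stood at 13.5, 14.2 and 14 FPKM in WT replicates 1, 2 and 3 and at 15.2, 9.42 and 15.3 in cKO replicates 1, 2 and 3. Its lowest value of all 6 libraries was in cKO replicate 2, as for 5 of the 9 members and 27.3% of all genes tested. Morc1, a factor of transposon silencing in male germ cells, stood at 3.81 ± 1.01 and 5.29 ± 1.58 FPKM, and Tcfl5, a basic helix-loop-helix factor, at 2.73 ± 0.521 and 3.47 ± 0.423 (limma adjusted p = 0.809 and 0.801).

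**Figure D3:**
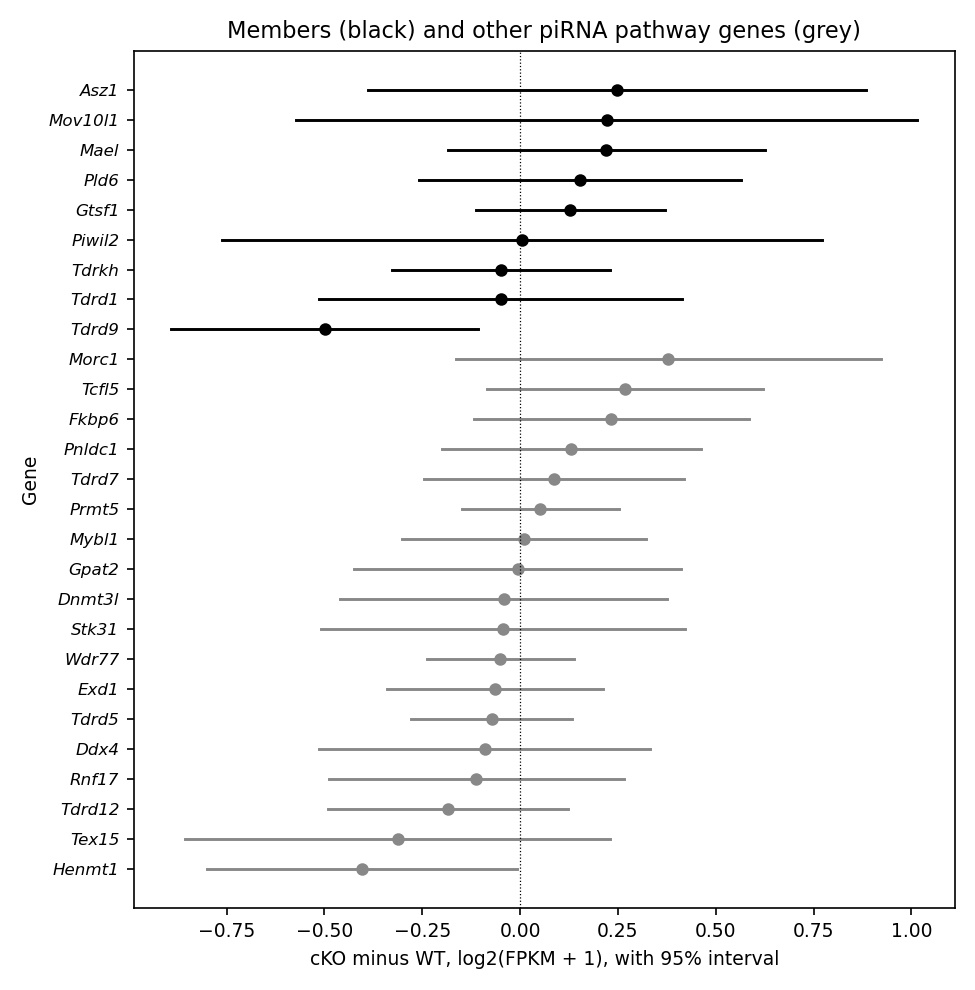
Difference between cKO and WT on the log2(FPKM + 1) scale (points) with 95% intervals (lines) for the 9 members in black and the 18 other piRNA pathway genes above the filter in grey. The intervals of Tdrd9 and Henmt1 alone lie wholly below 0, and none lies wholly above it.

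Genes of the microRNA and small interfering RNA machinery, which loads AGO in place of PIWI proteins, were likewise not called, 0 of 14 in either direction, with a median of -0.10 and 3 above 0. Dgcr8, a subunit of the microRNA precursor processing complex, had the smallest p of the 14 (limma adjusted p = 0.79). It averaged 7.46 ± 0.332 FPKM over the WT and 8.53 ± 0.301 over the cKO libraries. Its groups did not overlap, with cKO higher, as in 6.37% of all genes tested. Ago3, next by p, averaged 5.41 ± 0.466 and 4.28 ± 0.951 FPKM (limma adjusted p = 0.799). Its groups did not overlap either, with cKO lower, as in 5.89% of all genes tested. Ago2, the slicing Argonaute, averaged 12.3 ± 2.79 FPKM over the WT and 8.87 ± 4.66 over the cKO libraries (limma adjusted p = 0.831), with 3.53 FPKM in cKO replicate 2. Ago2 is among the 4 with the smallest p and was singled out after that value was seen. In cKO replicate 2 it was lowest of all libraries, as were Piwil2, Mov10l1 and 27.3% of all genes tested.

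The score of a list, its mean log2(FPKM + 1) minus the WT mean, was 0.07, 0.00478 and -0.08 for the 9 members in WT replicates 1, 2 and 3 and 0.12, -0.30 and 0.30 in cKO replicates 1, 2 and 3. The oocyte marker list of 20 genes ranged less, from -0.07 to 0.08 in WT and from -0.08 to 0.05 in cKO. Single oocyte markers, named after their values were seen, went both ways. In cKO replicate 2 Nlrp5 (148 FPKM) and Kit (40.4) were lowest of the 6 libraries, and Ooep (290) and Ybx2 (100) highest. The members' score minus that of the oocyte markers was -0.01 to 0.01 over the WT libraries, then 0.08, -0.24 and 0.38 in cKO replicates 1, 2 and 3. The members' score thus stayed near that of the oocyte markers over the WT libraries, where the subtraction centres both on 0. Tdrd9 and Asz1 did not, with their highest WT value in WT replicate 3, where the oocyte score was the lowest of WT. The scores parted in both directions in cKO replicates 2 and 3. In cKO replicate 2 the other piRNA pathway genes scored -0.19, the microRNA and small interfering RNA machinery -0.30 and the granulosa markers -0.31. The leukocyte, surface epithelium, stroma and theca, endothelial, and testis markers scored 0.50, 0.70, 0.04, 0.12 and 0.28 there. In cKO replicates 1 and 3 the granulosa markers scored -0.15 and -0.25, and the leukocyte markers 1.96 and 1.27. In those libraries the other piRNA pathway genes scored 0.09 and 0.07, and the microRNA and small interfering RNA machinery -0.04 and 0.00189. In whole ovaries, fewer oocytes and less RNA per oocyte cannot be told apart. Of the 20 oocyte markers 0 were called, with a median difference of -0.02. The smallest p among them was that of Oog1, at 3.57 ± 0.559 FPKM over the WT and 2.51 ± 0.555 over the cKO libraries (limma adjusted p = 0.773).

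**Figure D4:**
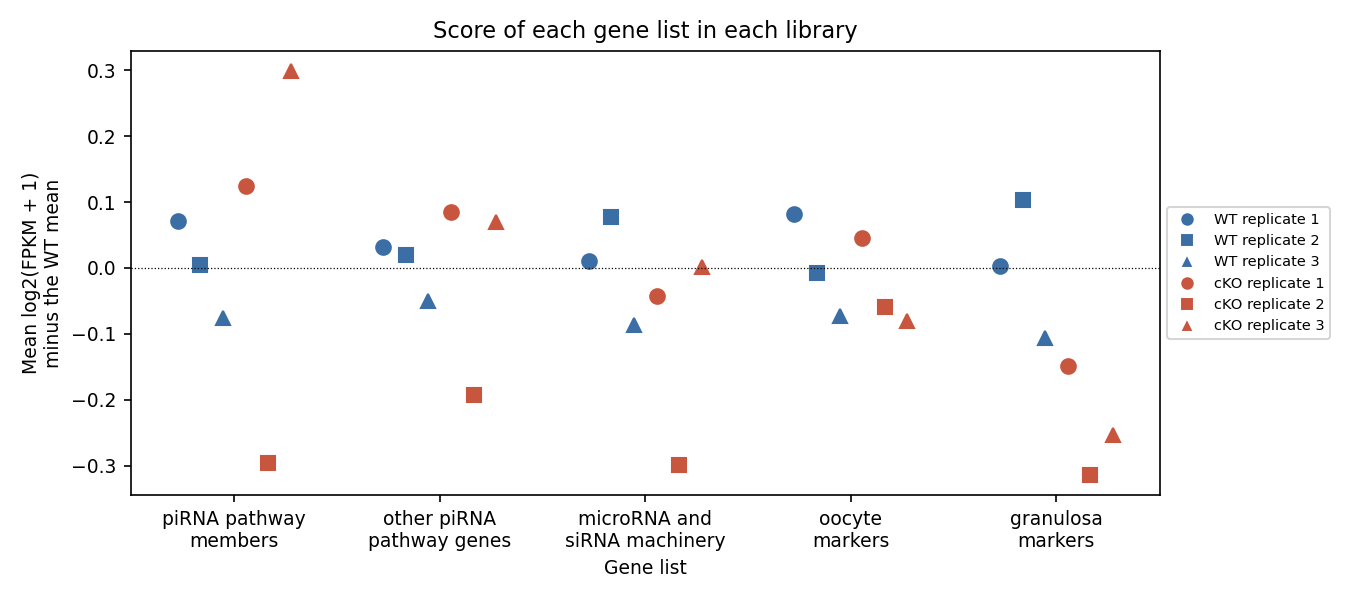
Score of each gene list (mean log2(FPKM + 1) minus the WT mean) in each library, with blue for WT, red for cKO and a marker shape for each replicate number. The members spread from -0.30 to 0.30 over the cKO libraries, while the oocyte markers stay between -0.08 and 0.08 over all 6.

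Markers of other cell types differed in their summed level between the groups, although 0 of them passed the test (limma, smallest adjusted p = 0.32). Summed FPKM of the 12 granulosa markers was 855 to 943 in WT and 725 to 849 in cKO, with 9 of 12 lower and 3 higher in cKO, among them Irx3, which had the smallest p of that list (difference 0.57, limma adjusted p = 0.634), and Inhbb, named after its values were seen (difference 0.50, limma adjusted p = 0.759). That of the 12 leukocyte markers was 44.8 to 58.1 in WT and 83.1 to 365 in cKO. The 10 surface epithelium markers summed to 321 to 378 FPKM in WT and 404 to 545 in cKO. The 8 endothelial markers summed to 147 to 156 FPKM in WT and 172 to 174 in cKO. In each of these 4 lists the groups did not overlap, as in Tdrd9, and the part of such shifts in the Tdrd9 difference was not tested. The stroma and theca markers overlapped, at 1701 to 2462 and 1903 to 2560 FPKM.

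Among the genes most like the members' mean log2(FPKM + 1) over the 6 libraries were Prkcb, Mfn2, Pias1 and Megf6, each with a Pearson coefficient of 0.988 to 0.999 as a description of these 6 libraries. Over all 12720 protein-coding genes compared, 2.25% lay above 0.9. Prkcb, for example, had 4.45, 4.14 and 3.89 FPKM in WT replicates 1, 2 and 3, beside 4.74, 2.92 and 5.7 in the cKO replicates of the same numbers.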

How the data were processed

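The authors deposited 1 table of FPKM values per gene for the 6 libraries. HISAT2 2.0.5 is the tool listed, and mm10 and GRCm39 the builds, per the submitters' processing notes, which give them no role. Chromosome accessions in the table are those of GRCm39. The sources used here give no counter, annotation or strandedness. FPKM times gene length gave whole reads in each library (100% of values within 0.01 of a whole number), so the depth is known, 16840923 to 18721895 reads. The implied denominators equal median-of-ratios size factors, and no further scaling was applied.

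A gene was tested if its mean reached 1 FPKM, on log2(FPKM + 1), which understates the change of low genes. limma 3.58.1 under R 4.3.3 gave moderated, two-sided p-values (trended prior), adjusted by Benjamini-Hochberg over all 14714 genes, with a threshold of 0.05. The fit was tested on simulated data. Values are mean ± SD over 3 libraries, and intervals are the fit's 95% intervals. The members and lists were chosen with earlier results of these data known. Named beyond the members are Srsf1, markers, genes among those with the smallest p of a list, Inhbb and, for their level, other testis markers (chosen after their values were seen), other piRNA pathway genes by level, and the 5 genes most alike in pattern, of which 1 is not reported here.

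Alternatives were other pseudocounts (0.1, 0.5), no filter or one at 5 FPKM, a common total, quantile normalization, a robust prior, the replicate number as a block, limma-voom on recovered reads, and leaving out each library.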

Additional observations from a re-analysis of the deposited data

How the results depend on the processing

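None of the 9 members was called, higher or lower (0 and 0), in any of the 15 alternatives. Mael, Gtsf1, Asz1, Tdrd9 and Pld6 kept their direction in all alternatives in which they were tested. Tdrd9 ranged from -0.60 to -0.33 (limma, lowest adjusted p = 0.656). The value of Piwil2, 0.00487, turned to -0.00359 with a pseudocount of 0.1, -0.0538 with a common total and -0.00505 with limma-voom, and ran from -0.28 to 0.39 with a library left out. The median of the members, 0.13, was 0.0653 with a common total and 0.0582 with quantile normalization, and ran from -0.0637 to 0.30 with a library left out. With a library left out, Tdrd1 ran from -0.18 to 0.17, Tdrkh from -0.0939 to 0.0298 and Mov10l1 from -0.0637 to 0.60. The cause was not tested. A filter at 5 FPKM removes Tdrkh and Pld6.

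Over all genes, the count higher went from 1 to 0 with either pseudocount, no filter, the filter at 5 FPKM, quantile normalization, the replicate block and limma-voom, and the count lower from 2 to 0 with no filter, the block and limma-voom. With a library left out they were 0 to 1 and 0 to 1. At an unadjusted p below 0.05 limma-voom found 6.16% of genes. The median difference of the other piRNA pathway genes ran from -0.0822 to 0.0836 with a library left out, above 0 without cKO replicate 2, and that of the oocyte markers moved from -0.02 to -0.10 with quantile normalization. Deviations from the group means correlated at 0.181, -0.08 and -0.06 between libraries of the same number, so the numbers were not taken to pair them. With the replicate block 0 members were called. Depth limited Pld6 most among the members (99 to 158 reads), and Gtsf2 among the other piRNA pathway genes named (0 to 2).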
